A study of Mus musculus with 16 samples.

Results

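The clone difference in the response to 2 h of c-RAF induction was examined in 8 RNA-seq libraries, those of clones 4 and 8 at 0h and 2h with 2 libraries each, out of the 16 libraries of the study. They were chosen by their labels alone, and the quantity described throughout is the change from 0h to 2h in clone 8 minus the change from 0h to 2h in clone 4, on a log2 scale. The cells were mouse embryonic stem cells (the labels call them CRAFR26) that carry a tamoxifen-inducible c-RAF construct and had been differentiated towards RSC, a name used in the field for rosette-like stem cells. All 16 libraries came from cells that spent 48 h in the FGF receptor inhibitor PD17 at 250 nM in place of the MEK inhibitor PD03. The 0h cells received no tamoxifen, the 2h and 4h cells received 250 nM 4-hydroxytamoxifen (4OHT) for 2 or 4 h, and the rev cells received 4 h of 4OHT and then a MEK inhibitor for 2 h. Clone 4 and clone 8 are each 1 clonal line, so a difference between them is a difference between 2 lines, and the p-values measure only the spread between libraries of the same clone and time, which may be technical.

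Activated c-RAF phosphorylates MEK, and MEK phosphorylates ERK, which acts on SRF partners and ETS factors to switch on immediate-early genes such as Egr1, Fos and Jun. Some of the genes switched on in this way, including the Sprouty and Spred proteins and the dual-specificity phosphatases, feed back to limit the pathway. In pluripotent cells ERK is known for driving exit from the naive state, and the Nodal pathway with its secreted inhibitors Lefty1 and Lefty2 acts beside it.

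The 8 libraries held 4878342 to 10444126 counts (median 8113392), of which 46.7% to 64.9% fell in 8 features, among them CT010467.1 (annotated as ribosomal RNA), the mitochondrial ribosomal RNAs mt-Rnr1 and mt-Rnr2, and Lars2. That share was 58.8% to 64.9% in the 6 libraries of clone 4 and of clone 8 at 0h, and 52.1% and 46.7% in the 2 libraries of clone 8 at 2h. It therefore moved with the clone difference, and its part in the results was not tested beyond the scaling alternatives given beside them. Outside those features 1834556 to 5457796 counts remained per library, and 3 counts corresponded to 0.21 to 0.599 CPM (counts scaled to the library total times its normalization factor). Markers of naive and general pluripotency were present throughout, with summed levels of 1830 to 2667 and 1536 to 1928 CPM. Among markers of other cell types Afp and Ttr (endoderm), Neurog2 (neural), and Lum and S100a4 (fibroblasts or feeder cells) were at 0 in all 8 libraries. Other members of these lists were present. The 17 primitive endoderm markers summed to 232.4 to 244.9 CPM at 0h and 244.2 to 257.4 at 2h in clone 4. In clone 8 they summed to 355.9 to 359.9 and then 377.9 to 397.5 CPM. The 15 neural markers summed to 151 to 169.9 and then 127.4 to 132.7 CPM in clone 4, and to 133.6 to 143.4 and then 141 to 146.5 CPM in clone 8. The summed CPM of 14 fibroblast and feeder markers was 742.5 to 802.1 at 0h and 840.5 to 1027 at 2h in clone 4, and 832.9 to 877.2 at 0h and 688.5 to 786.4 at 2h in clone 8. That of 14 trophoblast markers was 85.2 to 96.9 and then 120.1 to 126.3 in clone 4, against 66.8 to 79.0 and then 46.9 to 50.4 in clone 8. Of the 14 fibroblast and feeder markers 4 had enough counts to be tested, and Col1a1, Col1a2, Col3a1 and Thy1 were not among them. Of the 17 primitive endoderm markers 8 had enough, without Gata6, Sox7 and Sox17. The number was 9 of 15 for neural and 11 of 14 for trophoblast markers. The part of these markers in the results was not tested.

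Promoters of 4 genes are shown because their genes carry the pattern: Jun, Spred1 and Dusp5 rose more in clone 4, and Npr3, a clearance receptor for natriuretic peptides, moved in opposite directions. Each line holds the 200 bases from 250 to 51 before the RefSeq start (GRCm38.p6), 5′ to 3′ on the gene's own strand, and capitals mark a CArG box, the sequence that SRF binds.
Jun: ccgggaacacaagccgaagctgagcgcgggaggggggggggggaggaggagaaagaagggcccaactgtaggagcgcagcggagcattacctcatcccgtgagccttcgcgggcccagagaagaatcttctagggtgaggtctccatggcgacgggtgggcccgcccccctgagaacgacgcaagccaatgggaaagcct
Spred1: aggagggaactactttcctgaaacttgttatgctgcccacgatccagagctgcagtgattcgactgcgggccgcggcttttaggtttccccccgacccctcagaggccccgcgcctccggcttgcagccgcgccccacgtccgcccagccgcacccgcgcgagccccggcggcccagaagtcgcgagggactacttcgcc
Dusp5: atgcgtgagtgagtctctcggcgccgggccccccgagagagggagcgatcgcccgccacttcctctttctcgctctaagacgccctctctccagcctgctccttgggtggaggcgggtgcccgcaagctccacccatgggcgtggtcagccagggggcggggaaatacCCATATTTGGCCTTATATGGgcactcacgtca
Npr3: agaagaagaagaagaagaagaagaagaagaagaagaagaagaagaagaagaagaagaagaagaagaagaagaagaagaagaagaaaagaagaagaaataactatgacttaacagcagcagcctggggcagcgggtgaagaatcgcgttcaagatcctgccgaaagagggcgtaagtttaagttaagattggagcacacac
The windows lie at chr4:95052273-95052472 on the minus strand for Jun, chr2:117120821-117121020 on the plus strand for Spred1, chr19:53528895-53529094 on the plus strand for Dusp5 and chr15:11907422-11907621 on the minus strand for Npr3. Both strands were searched for the CArG box and for the EGR motif GCGNGGGCG, the ETS motif CCGGAAGT, the AP-1 motif TGANTCA and the CRE TGACGTCA. Dusp5 held 2 adjacent CArG boxes, a motif present in 1.16% of 32851 windows of the same length, and the other 3 windows held none of the 5 motifs. The other motifs stood in 3.04% (EGR), 1.40% (ETS), 5.57% (AP-1) and 0.828% (CRE) of the windows, and a match describes letters only. Windows of 13 genes were searched in all, and Dusp5 alone held a CArG box. Among those not printed, Nab1 held 2 EGR motifs and 1 of 4 windows of Csrnp1 held an AP-1 motif.

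The change at 2h differed between the clones for 1012 of 12742 genes tested, 7.94%, at an adjusted p under 0.05 in edgeR's quasi-likelihood test. Of these, 639 (5.01% of genes tested) had the more positive change in clone 4 and 373 (2.93%) in clone 8. The median size of the difference was 0.94 on the log2 scale, and 449 genes differed by at least 1. Clone 4 changed in more genes, with 1751 raised (13.7%) and 1268 lowered (9.95%), than clone 8, with 975 raised (7.65%) and 1036 lowered (8.13%). This order was reversed with library totals (946 genes in clone 4, 972 in clone 8). It was also reversed without either clone 4 library of 0h and without 2h clone 4 replicate 2, each leaving fewer libraries in clone 4. The clones differed in level for 1489 genes (11.7%) at 0h and 3876 (30.4%) at 2h. Of the 1012 genes, 675 differed in level at 2h alone, 171 at 0h alone, 113 at both times and 53 at neither. The number of genes was 476 with library totals in place of normalization factors and 526 with DESeq2, and it ranged from 424 to 1149 when 1 of the 8 libraries was left out.

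The split between directions depended on the scaling. The share of the called genes with the more positive change in clone 4 was 63.1% with TMM factors, 50.4% with library totals after the 8 abundant features were removed, and 5.46% with plain library totals, where the median difference over all genes was 0.56 in place of -0.02. In the same order of settings, raised genes made up 58.0%, 38.5% and 28.0% of the changed genes in clone 4, and 48.5%, 39.3% and 92.6% in clone 8. Values below are on the TMM scale, that is, relative to a typical gene. Counts of called members of gene lists below stand against shares over all genes tested. These were 7.94% differing, 5.01% more positive in clone 4 and 2.93% in clone 8. Within a clone they were 13.7% raised and 9.95% lowered in clone 4, and 7.65% and 8.13% in clone 8.

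By direction within each clone, 552 of the 1012 genes changed in clone 4 alone, 244 in clone 8 alone, 59 in both the same way, 71 in neither and 86 in opposite directions. In the 552 the median size of the change was 0.83 in clone 4 and 0.17 in clone 8. Of these, 223 rose in clone 4 with a negative value in clone 8, and 136 fell in clone 4 with a positive value in clone 8. Among the 639 genes more positive in clone 4, 442 rose in clone 4 and 208 fell in clone 8. Among the 373 genes more positive in clone 8, 248 fell in clone 4 and 129 rose in clone 8. The plot of the changes in both clones shows the 2 sets on either side of the line of equal change.

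**Figure D1:**
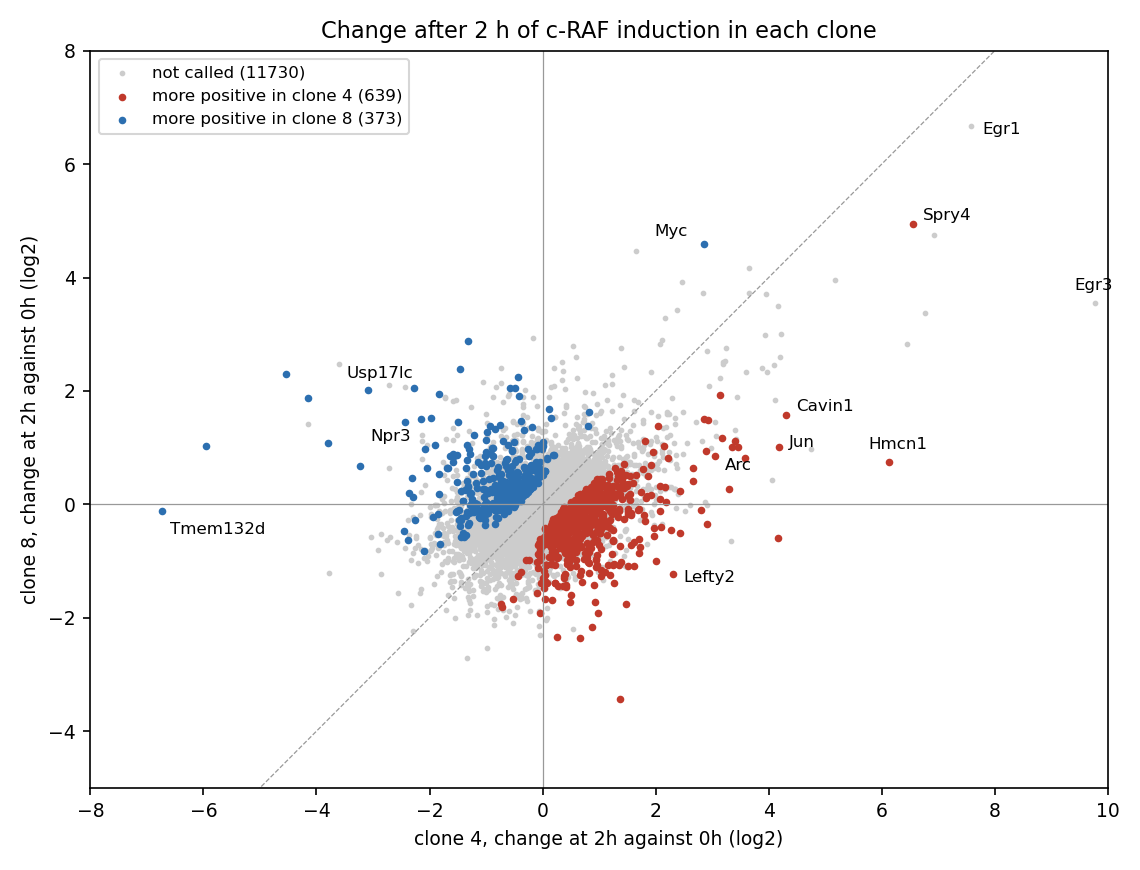
Change from 0h to 2h in clone 4 (horizontal, log2) and in clone 8 (vertical, log2) for the 12742 genes tested. Red points are the 639 genes with the more positive change in clone 4, blue points the 373 with the more positive change in clone 8, grey points the 11730 others, and the dashed line marks equal change. Points far from 0 on the horizontal axis include genes with no counts in one clone 4 condition (Egr3, Hmcn1, Tmem132d), whose fitted values are not bounds.

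Esr1, whose sequence a tamoxifen-inducible construct can carry, did not differ in its change past the threshold (0.22, adjusted p = 0.703). It was at 10.6 to 20.0 CPM in clone 4 against 3.31 to 7.57 CPM in clone 8, a level difference of -1.57 at 0h (adjusted p = 1.08e-05). Counts of an endogenous gene and of the construct cannot be told apart.

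Secreted Nodal inhibitors gave the clearest opposite movement. Lefty2 (chr1:180893108-180899103, plus strand) was at 13.2 and 9.70 CPM at 0h and 56.3 and 55.6 CPM at 2h in clone 4, and at 75.6 and 90.5 CPM at 0h and 32.0 and 38.5 CPM at 2h in clone 8. The order of the clones was thus reversed by 2h, with no overlap between any of the 4 conditions. The clone difference in the change was -3.54 ± 0.27 (log2, SE; adjusted p = 1.32e-10): Lefty2 rose by 2.31 in clone 4 and fell by 1.23 in clone 8. Lefty1, its close paralog on the same strand (chr1:180935022-180938400), went from 15.6 and 9.55 to 31.6 and 21.3 CPM in clone 4 and from 23.1 and 25.9 to 10.6 and 10.7 CPM in clone 8. Its difference was -2.31 ± 0.26 (adjusted p = 4.86e-07), and reads may be shared between the 2 paralogs. Since these are bulk libraries, fewer cells with a transcript and less of it per cell cannot be told apart here or below.

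Of 17 tested genes of the Nodal, Lefty and TGF-beta list, 5 differed, all with the more positive change in clone 4, against 5.01% of all genes. The median difference of the list was -0.27 against -0.02 over all genes tested. Skil, a SMAD co-repressor induced by TGF-beta signals, rose from 48.5 and 40.5 to 85.3 and 108 CPM in clone 4 and was at 58.1, 56.6 and then 45.2, 45.4 CPM in clone 8. Furin, a protease that matures Nodal, differed by -1.07, and the inhibitory SMAD Smad7, which rose in both clones, by -0.67. The call for Smad7 was lost with edgeR's RLE factors, with library totals and in DESeq2. Nodal itself did not pass the test (-0.08, adjusted p = 0.828): it was at 31.8 to 43.8 CPM in clone 4 and 40.4 to 48.4 CPM in clone 8. Its co-receptor Tdgf1 rose by 0.60 in clone 4 and by 0.63 in clone 8, with a difference of 0.03 ± 0.15 (adjusted p = 0.937). With plain library totals the median of the list turned to 0.31, against 0.56 over all genes, while Lefty1 and Lefty2 kept their direction.

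**Figure D2:**
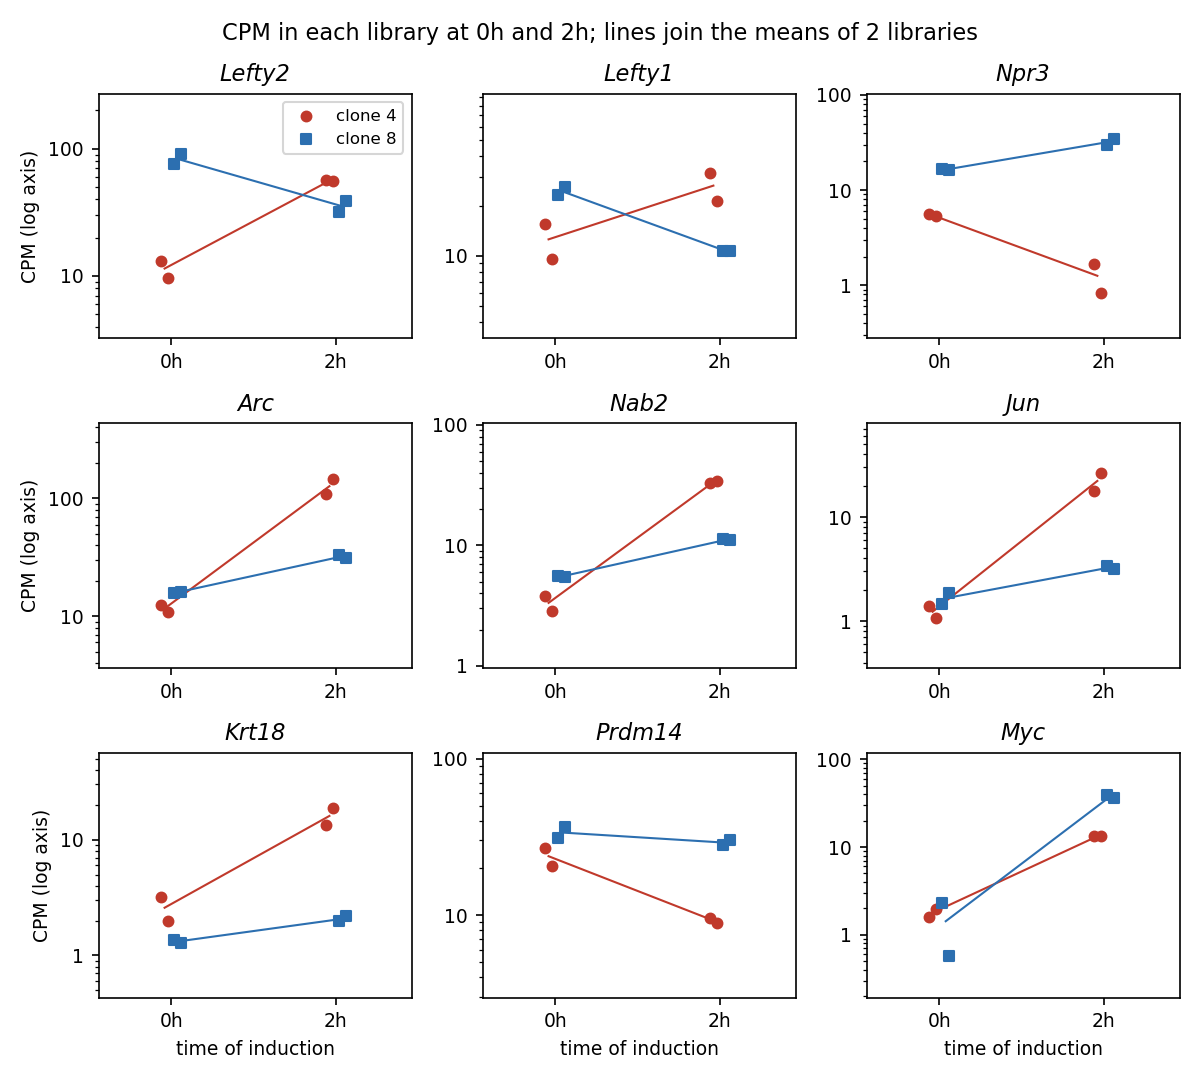
CPM in each library (log axis) at 0h and 2h for 9 genes, with circles for clone 4, squares for clone 8 and lines joining the means of 2 libraries. Lefty2 and Lefty1 cross between the times, Npr3 moves apart, and Arc, Nab2, Jun and Krt18 rise further in clone 4, while Myc rises further in clone 8.

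Immediate-early and feedback genes of the ERK pathway rose in both clones, and where the rise differed it was mostly larger in clone 4. Of 27 tested members of this list 22 rose in clone 4 and 22 rose in clone 8, with median changes of 2.18 and 1.01. The change differed for 9 of the 27, against 7.94% of all genes tested. Of these 8 were more positive in clone 4 and 1, Myc, in clone 8, and the median difference of the list was -0.83 against -0.02 over all genes. With library totals the median was -0.24, against 0.56 over all genes, with 3 members more positive in clone 4 and 1 in clone 8.

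Among transcription factors of this list, Jun (chr4:95049034-95052222), an AP-1 subunit, was at 1.40 and 1.06 CPM at 0h and 17.9 and 26.5 CPM at 2h in clone 4, and at 1.45, 1.87 and then 3.42, 3.15 CPM in clone 8. The clones were close at 0h and far apart at 2h. Its difference was -3.18 ± 0.52 (adjusted p = 0.000148). Myc (chr15:61985391-61990374), a growth-promoting factor, went the other way: from 1.60 and 1.97 to 13.2 and 13.3 CPM in clone 4 and from 2.28 and 0.575 to 39.3 and 36.4 CPM in clone 8, a difference of 1.73 ± 0.50 (adjusted p = 0.0282). The 2 libraries of clone 8 at 0h were apart: the difference was 3.16 without replicate 1 and 1.18 without replicate 2 (adjusted p = 0.146), and the call was lost under 5 of 18 alternatives, each with 1 library left out. The ETS factor Etv5 rose from 88.7 and 87.2 to 164 and 168 CPM in clone 4 and from 102 and 104 to 127 and 126 CPM in clone 8 (-0.62, adjusted p = 0.00432). Ier2, an immediate-early nuclear protein, rose by 1.28 in clone 4 and by 0.64 in clone 8.

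Egr1, the immediate-early zinc finger factor with the highest CPM of the list at 2h, did not pass the test: it was at 1.00 and 3.94 CPM at 0h and 457 and 572 CPM at 2h in clone 4, and at 1.45, 2.01 and then 180 and 169 CPM in clone 8 (difference -0.91 ± 0.48, adjusted p = 0.25). Its level at 2h did differ, by -1.56 (adjusted p = 2.01e-11). Egr3 had no counts at 0h in clone 4 and 14.1 and 13.1 CPM at 2h, at least 25.9-fold higher than the limit that 3 counts per library allow, and in clone 8 it was at 0.104 and 0 CPM at 0h and 0.912 and 0.841 CPM at 2h. Its difference in the change had an adjusted p of 0.176, and its level at 2h differed by -3.94 (adjusted p = 1.46e-12). Fos, Junb, Dusp6 and Etv4 had negative differences (-1.23, -0.49, -0.96 and -1.01) with adjusted p of 0.422, 0.315, 0.0898 and 0.254. Egr1, Dusp6 and Etv4 each passed the test under 1 of 18 alternatives.

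Feedback regulators of the pathway were next. Spred1 (chr2:117121374-117182279), a RAS inhibitor whose promoter is printed above, was at 3.80 and 1.97 CPM at 0h and 18.8 and 27.5 CPM at 2h in clone 4, and at 17.2, 15.95 and then 30.1, 30.4 CPM in clone 8. Clone 8 thus began above clone 4, by 2.58 (adjusted p = 1.08e-08), and the gap at 2h was 0.39. The difference in the change was -2.19 ± 0.31 (adjusted p = 2.24e-05). Nab2, a co-repressor of EGR factors, went from 3.80 and 2.88 to 32.7 and 34.4 CPM in clone 4 and from 5.603 and 5.46 to 11.3 and 11.01 CPM in clone 8 (-2.34 ± 0.30, adjusted p = 3.73e-06). Of its exon bases 42.2% lie under other annotated genes, and the counting strand is not given in the sources used here, so its counts are uncertain. Dusp5, a nuclear ERK phosphatase, rose from 2.40 and 2.43 to 18.2 and 17.1 CPM in clone 4 and from 2.70 and 3.45 to 8.66 and 8.55 CPM in clone 8 (-1.36, adjusted p = 0.0201). The Sprouty inhibitors Spry4 and Spry2 rose by 6.55 and 1.82 in clone 4 and by 4.95 and 1.12 in clone 8. The call for Spry2 was lost with edgeR's RLE factors, with library totals and in DESeq2.

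Outside that list, Arc, Nrp2 and Efr3b were among the 8 largest differences on the clone 4 side. Arc (chr15:74669083-74672570), an immediate-early gene known from neurons, was at 12.4 and 10.9 CPM at 0h and 109 and 145 CPM at 2h in clone 4, and at 15.8, 16.2 and then 33.4, 31.2 CPM in clone 8. Its difference was -2.44 ± 0.21 (adjusted p = 1.23e-09). The semaphorin and VEGF co-receptor Nrp2 rose from 0.999 and 0.758 to 10.4 and 10.6 CPM in clone 4 and was at 2.18, 1.15 and then 2.89, 3.22 CPM in clone 8. Efr3b, a membrane scaffold of phosphatidylinositol kinase, rose from 3.20 and 2.88 to 19.5 and 22.8 CPM in clone 4 and was at 5.91, 3.45 and then 5.24, 3.86 CPM in clone 8 (-2.90 ± 0.39, adjusted p = 1.31e-05). Nab1, Csrnp1 and the zinc transporter Slc39a14, named after their values were seen, rose in both clones, by 1.95, 1.66 and 3.14 in clone 4 and by 0.93, 0.51 and 1.93 in clone 8. The call for Nab1 was lost with edgeR's RLE factors, with library totals and in DESeq2.

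Of the 86 genes that moved in opposite directions, 46 rose in clone 4 and fell in clone 8 and 40 did the reverse. Beside Lefty2 and Lefty1, those of the first kind with the largest change in the clone that moved less were Enpp3, an ectonucleotide pyrophosphatase (from 7.19 and 9.09 to 21.1 and 21.98 CPM in clone 4, from 11.3 and 7.47 to 5.17 and 4.35 CPM in clone 8), Kif26a, Sptb and Focad. Enpp3 differed by -2.40 ± 0.27 (adjusted p = 3.86e-07), and Kif26a, Sptb and Focad by -1.94, -1.63 and -1.46. Growth regulators in this group were Grb10, an imprinted adaptor that dampens insulin signalling (-1.50), and Klf2, a naive pluripotency factor (-0.78).

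In the reverse group Npr3 (chr15:11839896-11907287) stood at 5.59 and 5.30 CPM at 0h and 1.69 and 0.829 CPM at 2h in clone 4, and at 16.5, 16.4 and then 30.2, 34.6 CPM in clone 8. The clones were apart at both times, and further apart at 2h. Its difference was 3.06 ± 0.35 (adjusted p = 4.23e-07). The calcium-activated channel family member Ano3, the kinase Cdkl2 and Pramel6 had differences of 2.46, 2.43 and 2.28, at no more than 5.77 CPM in any of the 8 libraries. Eras, an embryonic stem cell RAS protein, went from 2.997 and 4.85 to 2.46 and 1.52 CPM in clone 4 and from 1.76 and 3.16 to 5.55 and 4.91 CPM in clone 8 (2.14, adjusted p = 0.00415). Ccne1, the cyclin of S phase entry, fell from 37.4 and 44.9 to 33.1 and 25.4 CPM in clone 4 and rose from 37.6 and 37.4 to 56.4 and 49.8 CPM in clone 8 (1.00, adjusted p = 0.000218). Lama1, a basement membrane laminin chain, and Kit, a receptor tyrosine kinase, moved the same way with differences of 1.34 and 0.73.

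Vstm5 rose in clone 8 alone (2.31), but its call was lost under 9 of 18 alternatives. These were DESeq2 and the omission of any 1 of the 8 libraries. Rtkn fell in clone 4 and rose in clone 8 (2.41), with 41.65% of its exon bases under the gene Wdr54. Tmem132d had no counts at 2h in clone 4 after 1.40 and 1.82 CPM at 0h, at least 4.00-fold lower, and was at 6.02 to 8.77 CPM in clone 8. Hmcn1, with no counts at 0h in clone 4, rose at least 2.06-fold there.

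Genes of the 2-cell-like state, a rare state of embryonic stem cells marked by cleavage-stage transcripts, rose in clone 8. The summed level of the list was 132.7 to 142.3 CPM at 0h and 198.8 to 222.8 CPM at 2h in clone 4, and 151.4 to 152.0 and then 306.5 to 326.3 CPM in clone 8, so the sum was higher at 2h in both clones. Of 17 tested members 16 rose in clone 8 (median 1.84) and 2 rose and 1 fell in clone 4 (median -0.36). The change differed for 4 of the 17, all more positive in clone 8 (median difference 2.01), against 2.93% of all genes tested. With each of the 3 other scalings the count was also 4 and 0, but not always of the same genes, since Dppa2 lost its call with library totals. DESeq2 called 2, and there Dppa2 and Zfp809 lost their calls. When 1 of the 8 libraries was left out, 1 to 5 members differed. Trim43a went from 1.14 and 0.719 to 7.14 and 7.15 CPM in clone 8 and was at 0.799, 0.606 and then 0.389, 0.138 CPM in clone 4. Usp17lc, Zfp809 and Dppa2 were the others called, with differences of 5.10, 0.69 and 0.59. Dppa2, also a member of the general pluripotency list, rose in both clones, by 0.80 in clone 4 and 1.38 in clone 8. Within the summed level it was at 24.4 and 23.3 and then 39.5 and 43.3 CPM in clone 4. In clone 8 it was at 33.2 and 34.5 and then 85.2 and 91.3 CPM. Zscan4d, a telomere factor of this state, rose from 2.28 and 1.72 to 9.19 and 8.90 CPM in clone 8 and was at 0 to 0.4 CPM in clone 4, with a difference of 2.88 that did not pass the test (adjusted p = 0.13). Usp17, Trim43 and Zscan4 genes are families of near-identical copies, so counts of single members are uncertain.

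Pluripotency genes differed in part. Of 15 naive genes, 1 was more positive in clone 8 and 5 in clone 4, against 2.93% and 5.01% of all genes, with a list median of -0.05. With library totals the counts were 1 and 0, so the calls on the clone 4 side were lost. The median was then 0.53, against 0.56 over all genes. Prdm14, a repressor of FGF signalling (chr1:13113457-13127163), fell from 27.0 and 20.6 to 9.60 and 8.85 CPM in clone 4 and was at 31.1, 36.4 and then 28.0, 30.1 CPM in clone 8 (1.14 ± 0.21, adjusted p = 0.000672). Dppa3, an oocyte and early embryo factor, and Tcl1, an AKT co-activator, fell in clone 8, from 38.8 and 33.6 to 20.8 and 22.7 CPM and from 43.0 and 39.2 to 20.9 and 22.6 CPM. Their changes in clone 4 were 0.38 and 0.16 and did not pass the test. The core naive factors Nanog and Klf4 had differences of 0.14 ± 0.18 (adjusted p = 0.701) and 0.16 ± 0.17 (adjusted p = 0.627): Nanog was at 317 to 356 CPM in clone 4 and 528 to 604 CPM in clone 8, higher in clone 8 at both times.

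The orphan receptor Nr0b1 and the threonine dehydrogenase Tdh, both of the naive list, rose in clone 4 alone, by 0.85 and 0.43. Prdm1, a germ cell determinant, fell in clone 8 from 16.2 and 18.2 to 5.77 and 5.05 CPM and was at 10.9 to 12.3 CPM in clone 4 (-1.71 ± 0.25, adjusted p = 3.54e-05). Of 10 general pluripotency genes 2 were more positive in clone 8 (Dppa2 and the RNA-binding protein Lin28a) and 2 in clone 4 (Utf1 and Dppa4). Dnmt3l, a DNA methylation cofactor, was the 1 of 14 formative and primed genes called (-1.31): it rose from 19.8 and 29.1 to 45.9 and 57.1 CPM in clone 4 and was at 26.5, 23.4 and then 22.9, 18.998 CPM in clone 8. Its call was lost with library totals, where 1 member of the list was more positive in clone 8 and 0 in clone 4.

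The simple keratins Krt18 and Krt8 rose in clone 4. Krt18 went from 3.20 and 1.97 to 13.4 and 18.7 CPM in clone 4 and was at 1.35, 1.29 and then 1.98, 2.17 CPM in clone 8 (-2.02 ± 0.51, adjusted p = 0.0109). Its partner Krt8 went from 1.60 and 2.27 to 12.7 and 17.0 CPM in clone 4 and was at 0.311 to 1.90 CPM in clone 8 (-1.96 ± 0.63, adjusted p = 0.0481). The call for Krt8 was lost under 12 of 18 alternatives, among them the replicate block (adjusted p = 0.0557), and the difference was -0.46 without 0h clone 8 replicate 2 and -2.85 without 0h clone 8 replicate 1. Of 19 tested genes of the keratin and epithelial list 4 were more positive in clone 4, also Lad1 and the caveola component Cavin1, and none in clone 8. Over all genes these shares were 5.01% and 2.93%. The median was -0.52, against -0.02 over all genes. With library totals it turned to 0.05, against 0.56 over all genes, and 1 member was called in each direction. Trophoblast markers, whose summed level moved as given above, had 3 of 11 tested members more positive in clone 4 (Rhox9, Esx1 and Tfap2c), against 5.01% of all genes. Cdx2, Elf5 and Ascl2 of this list had too few counts to be tested, and Tfap2c is also in the germ cell list. The median of the trophoblast list was -0.93. With library totals it was -0.35, against 0.56 over all genes, and no member was called. Esx1 rose in clone 4 from 4.99 and 3.33 to 12.3 and 10.9 CPM, and Tfap2c, a trophoblast and germ cell factor, fell in clone 8 from 43.4 and 51.7 to 27.3 and 25.9 CPM.

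Replication-dependent histone genes, which package newly made DNA, shifted together in clone 4: 32 of 43 rose there (median 0.68) and 1 rose and 1 fell in clone 8 (median 0.08). The difference was negative for 43 of 43, against 6614 of 12742 genes tested. It passed the test for 8, all more positive in clone 4, against 5.01% of all genes. With library totals the median turned from -0.55 to 0.03, against 0.56 over all genes, and no member was called. Leaving out 1 library moved the number called to between 1 and 20. Hist1h1e, a linker histone, moved in opposite directions, from 47.7 and 34.6 to 62.9 and 57.2 CPM in clone 4 and from 52.2 and 52.5 to 36.2 and 33.2 CPM in clone 8 (-1.16 ± 0.17, adjusted p = 3.26e-05). Histone genes are near copies of each other, so single members are uncertain.

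Part of the glycolytic genes fell in clone 8. Of 26 tested members of the glycolysis and hypoxia list 12 fell in clone 8 and none rose (median -0.37), while 4 fell and 2 rose in clone 4 (median 0.04). Over all genes 8.13% fell in clone 8 and 9.95% in clone 4. The change was more positive in clone 4 for 6 and in clone 8 for 1, against 5.01% and 2.93% of all genes. With library totals the median of -0.42 turned to 0.17, against 0.56 over all genes, and the counts to 0 and 1. Pfkp, the platelet form of phosphofructokinase, fell from 181 and 189 to 99.7 and 94.9 CPM in clone 8 and was at 180, 133 and then 190, 158 CPM in clone 4 (-1.08 ± 0.16, adjusted p = 5.14e-05). Tpi1 fell in clone 8 from 109 and 133 to 59.1 and 63.6 CPM. Pdk1, a kinase that holds pyruvate back from mitochondria, rose in clone 4 from 5.19 and 3.94 to 13.9 and 11.6 CPM (-1.68). Vegfa, the angiogenic factor, was the exception, and fell in clone 4 from 52.3 and 35.6 to 21.9 and 20.9 CPM (0.66).

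The sterol and fatty-acid synthesis list differed in part. Of 29 tested members 12 rose in clone 4 and 6 in clone 8, against 13.7% and 7.65% of all genes. The change was more positive in clone 4 for 6 (among them Cyp51, Hmgcs1, Insig1, Sc5d and Srebf2) and in clone 8 for 1, Mvk, against 5.01% and 2.93%. Cyp51, a demethylase of cholesterol synthesis, rose from 58.3 and 57.3 to 146 and 153 CPM in clone 4 and from 54.3 and 52.7 to 71.6 and 75.9 CPM in clone 8 (-0.91 ± 0.14, adjusted p = 7.47e-05). The median difference of the list was -0.17 and turned to 0.42 with library totals, against 0.56 over all genes. Under that scaling no member was called and Hmgcs1, Insig1 and Srebf2 changed sign.

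Of 14 tested G1 cyclins and inhibitors 4 differed (list median 0.08), against 7.94% of all genes tested. Cdkn1b, the cell cycle inhibitor p27, fell from 34.6 and 30.8 to 15.7 and 15.3 CPM in clone 4 and was at 57.8, 55.3 and then 50.4, 47.9 CPM in clone 8 (0.86 ± 0.16, adjusted p = 0.000655). Cdkn1a, the inhibitor p21, rose from 33.6 and 30.0 to 60.9 and 72.0 CPM in clone 4 and from 26.3 and 30.3 to 35.6 and 36.2 CPM in clone 8 (-0.72). Cyclin D1 (Ccnd1) fell in clone 4 (1.03, adjusted p = 0.0192), but the changes of single libraries overlapped between the clones, and 23.4% of its exon bases lie under a gene on the other strand. With Ccne1 these made 3 genes more positive in clone 8 and 1 in clone 4. Few or no members of several large lists differed: 1 of 61 cytosolic ribosomal protein genes (Rpl28), 0 of 26 nuclear respiratory chain genes in edgeR (2 at an unadjusted p under 0.05, and 0 in DESeq2) and 1 of 34 ribosome biogenesis genes (Nop56).

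**Figure D3:**
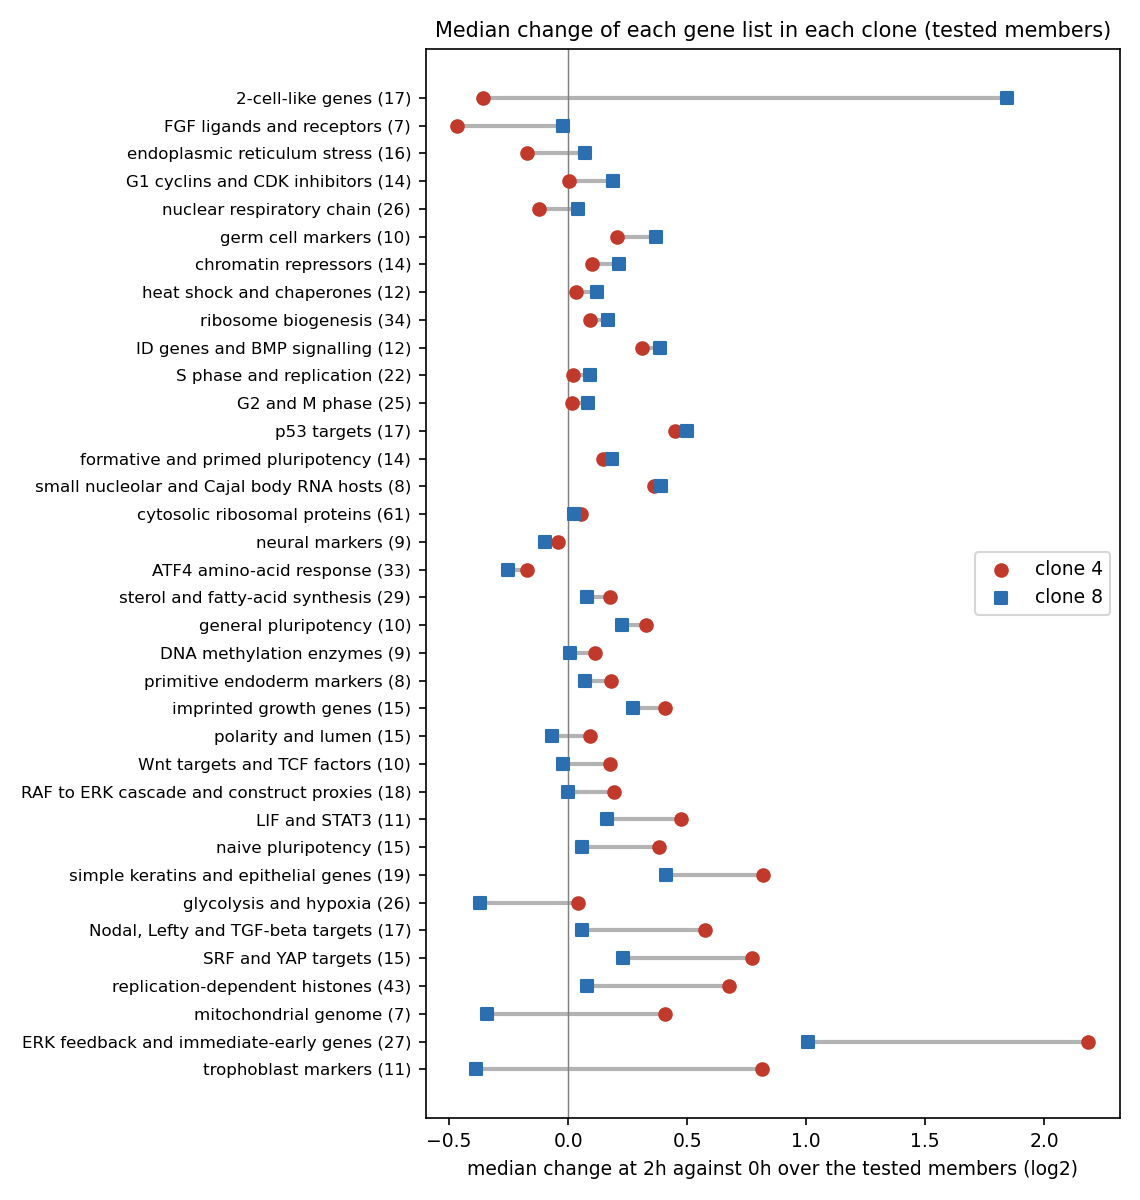
Median change from 0h to 2h over the tested members of each gene list (number in brackets) in clone 4 (circles) and clone 8 (squares), log2, for lists with at least 7 tested members. The 2-cell-like genes lie farthest to the clone 8 side (1.84 against -0.36), and the ERK and trophoblast lists lie to the clone 4 side (2.18 against 1.01, and 0.81 against -0.39).

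The same clone difference was taken from the other 8 libraries, as the change from 4h to rev (2 h of MEK inhibitor), which shares no library with the change from 0h to 2h. There it differed for 1681 of 12742 genes (13.2%) and for 38.5% of the 1012. The sign was the same in both comparisons for 806 of the 1012 genes (79.6%), against 62.4% of all genes tested. Of 390 genes called in both, 347 had the same sign and 43 the opposite one. One library of the second comparison, clone 8 rev replicate 1, stood apart with 78.9% of its counts in the abundant features; without it the same sign was seen for 808 genes (79.8%, against 63.4% of all), and 318 against 38 of 356.

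Among the 43 with opposite signs, 33 were more positive in clone 4 at 2h, and 29 of these rose in clone 4 at 2h; all 29 fell in clone 4 from 4h to rev. They held Arc, Nab2, Spred1, Spry4, Dusp5, Efr3b, Nrp2, Cavin1, Csrnp1, Slc39a14 and Plec, a cytoskeletal linker. The 33 were picked for a more positive change in clone 8 from 4h to rev. That choice favours genes that fell in clone 4, so the fall of all 29 is not an independent result. Arc went from -2.44 at 2h to 2.09 at rev, and Efr3b from -2.90 to 2.74. Of the ERK list 10 members were more positive in clone 8 at rev and none in clone 4 (median 0.99). The Lefty genes had the same sign in both comparisons, -5.29 for Lefty2 and -5.50 for Lefty1 from 4h to rev, but not at 4h. In clone 4 Lefty2 was at 1.73 and 8.38 CPM at 4h, below its 0h level, and at 69.6 and 51.3 CPM at rev, near its 2h level. Lefty1 was likewise at 0.933 and 1.27 CPM at 4h and 32.9 and 28.9 CPM at rev in clone 4. In clone 8 Lefty2 fell from 73.3 and 80.1 to 26.6 and 29.6 CPM between 4h and rev, and Lefty1 was at 15.98 and 10.7 and then 7.87 and 9.21 CPM. From 0h to 4h, a change that shares the 0h libraries, the clone difference had the opposite sign, 1.34 for Lefty2 (adjusted p = 0.0321) and 2.69 for Lefty1 (adjusted p = 0.000178). Prdm14 changed sign, from 1.14 to -1.13, and Prdm1 did not (-1.71 and -2.01).

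**Figure D4:**
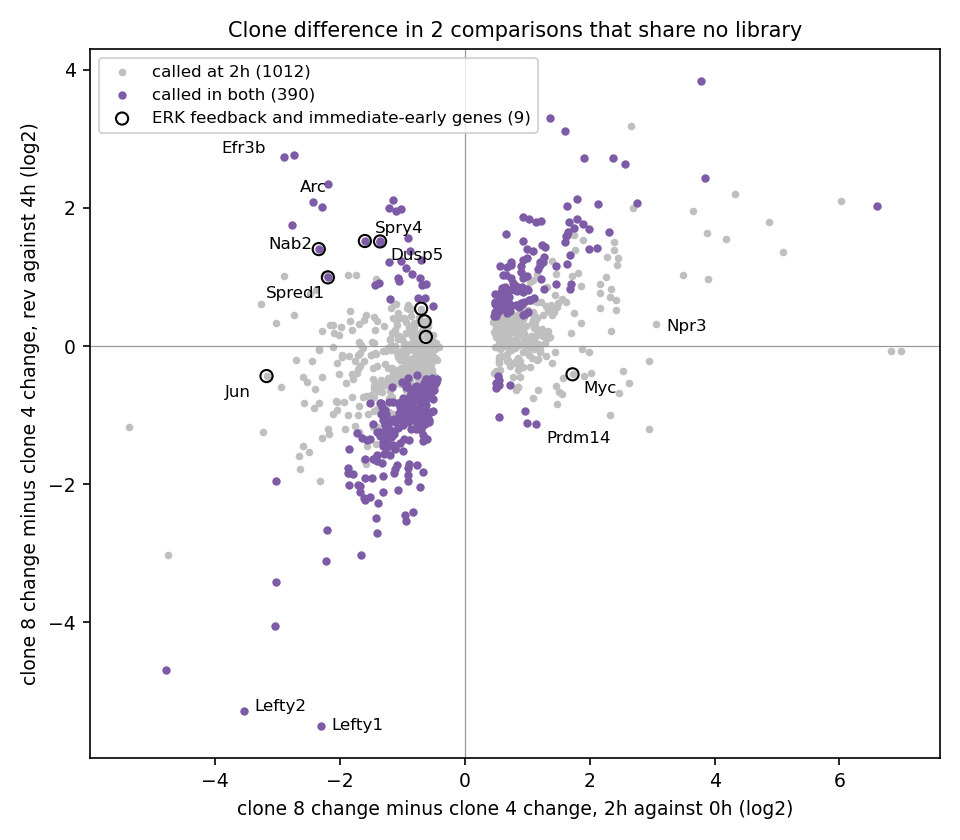
Clone 8 change minus clone 4 change, log2, from 0h to 2h (horizontal) and from 4h to rev (vertical), for the 1012 genes called at 2h. Purple points are the 390 called in both, and rings mark the 9 ERK feedback and immediate-early genes. Lefty1 and Lefty2 lie at the lower left, and Arc, Efr3b, Nab2, Spred1, Spry4 and Dusp5 at the upper left, where the signs are opposite.

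Called genes differed from all tested genes in length and level. The median exon length was 5587 bases for the 639 genes more positive in clone 4 and 4531 for the 373 more positive in clone 8, against 4375 over all genes tested, and the median genomic span was 33999, 23122 and 22277.5 bases. In the same order the median level was 21.7, 19.3 and 10.8 CPM, and the median GC content of each gene's longest transcript was 50.2%, 49.6% and 49.7%. Higher counts give the test more power, and the part of length in the results was not tested.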

How the data were processed

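RNA was sequenced from 16 samples, and the authors deposited 1 table of whole-number read counts per gene, with no normalization. Per the submitters' processing notes bcl2fastq 2.19.1, STAR 2.5.3a and the mm10 build were used; the counting program, its annotation and its strand setting are not given in the sources used here. Of 52636 gene IDs 52489 were matched to GENCODE M21 (GRCm38), from which symbols, coordinates and shared exons were taken.

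All 16 libraries were fitted in edgeR 4.0.16 (R 4.3.3) with 1 coefficient for each of the 8 combinations of time and clone, after filterByExpr by time (minimum count 10) and TMM scaling, and tested across all genes with the quasi-likelihood test and Benjamini-Hochberg adjustment; adjusted p under 0.05 counts as called. There were 8 residual degrees of freedom. The code was tested on simulated data. The 8 libraries compared held 4878342 to 10444126 counts. The 2 libraries of a condition were set against each other for copies: their chi-square, divided by its degrees of freedom, was 4.31 to 16.7, and none was a copy. Standard errors are the log2 value divided by the root of the F statistic. DESeq2 1.42.0, other scalings, filters, left-out libraries and the replicate number as a block were alternatives.

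Named genes were called genes with ordinary symbols and no overlap between the clones' changes: the 8 largest differences in each direction with at least 50 counts in the highest condition, the 6 strongest opposite movers in each direction, the 3 largest in each direction with a condition at or under 3 counts. Without these conditions, up to 4 called members of each of 38 gene lists and 14 set genes were added, and further members were named after their values were seen. Results for a few genes that the rule names are not reported here. The members and lists were chosen with earlier results of these data known. Promoters came from RefSeq (GRCm38.p6), where 13 of 18 genes looked up had an entry.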

Additional observations from a re-analysis of the deposited data

Results flagged for a closer look

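The change from 0h to 2h differed between the clones, by the interaction test in edgeR over all genes, for 1012 genes, and the change from 4h to rev for 1681. Every gene named in the text that passed the former test is given here with its difference, clone 8 change minus clone 4 change on the log2 scale; each rests on 2 libraries per clone and time. Among ERK feedback and immediate-early genes, the differences were -3.18 for Jun, -2.34 for Nab2, -2.19 for Spred1, -1.60 for Spry4, -1.36 for Dusp5, -0.70 for Spry2, -0.64 for Ier2, -0.62 for Etv5 and 1.73 for Myc. For Nodal, Lefty and TGF-beta genes the values were -3.54 for Lefty2, -2.31 for Lefty1, -1.46 for Skil, -1.07 for Furin and -0.67 for Smad7. The naive pluripotency list gave -1.12 for Dppa3, -1.08 for Tcl1, -0.83 for Nr0b1, -0.78 for Klf2, -0.70 for Tdh and 1.14 for Prdm14. In the general pluripotency list the differences were -0.86 for Dppa4, -0.76 for Utf1, 0.59 for Dppa2 and 1.10 for Lin28a. Among 2-cell-like genes, the differences were 0.69 for Zfp809, 4.19 for Trim43a and 5.10 for Usp17lc. For histone genes the values were -1.16 for Hist1h1e, -1.06 for Hist4h4, -1.02 for Hist1h3i and -1.004 for Hist2h4. The keratin and epithelial list gave -2.73 for Cavin1, -2.25 for Lad1, -2.02 for Krt18 and -1.96 for Krt8.

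In the trophoblast list the differences were -1.85 for Rhox9, -1.65 for Esx1 and -0.9995 for Tfap2c. Among germ cell genes, the differences were -1.71 for Prdm1 and 0.73 for Kit. For glycolysis and hypoxia genes the values were -1.68 for Pdk1, -1.08 for Pfkp, -0.71 for Pgk1, -0.69 for Tpi1, -0.62 for Aldoa, -0.46 for Gpi1 and 0.66 for Vegfa. The sterol list gave -0.91 for Cyp51, -0.68 for Sc5d, -0.55 for Hmgcs1, -0.55 for Srebf2, -0.52 for Insig1 and 0.67 for Mvk. In the G1 list the differences were -0.72 for Cdkn1a, 0.86 for Cdkn1b, 1.00 for Ccne1 and 1.03 for Ccnd1. Among imprinted genes, the differences were -1.87 for Phlda2, -1.50 for Grb10, -0.92 for Meg3 and -0.66 for Igf2r. Named genes outside every list that were more positive in clone 4 had -5.38 for Hmcn1, -3.03 for Zfp521, -2.90 for Efr3b, -2.90 for Rny1, -2.77 for Nrp2, -2.49 for Mroh2a, -2.44 for Arc, -2.40 for Enpp3, -2.28 for Col7a1, -2.19 for Pcdh1, -1.94 for Kif26a, -1.63 for Sptb, -1.46 for Focad, -1.21 for Slc39a14, -1.14 for Csrnp1, -1.11 for Plec, -1.02 for Nab1 and -0.70 for Bcl2l11. Those more positive in clone 8 had 0.54 for Epha4, 1.00 for Reep1, 1.80 for Smpdl3b, 2.14 for Eras, 2.28 for Pramel6, 2.31 for Vstm5, 2.41 for Rtkn, 2.43 for Cdkl2, 2.46 for Ano3, 3.06 for Npr3 and 6.61 for Tmem132d.

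Members of the remaining lists that were more positive in clone 4 had -1.31 for Dnmt3l, -1.02 for Nupr1, -0.97 for mt-Co1, -0.96 for Tagln2, -0.96 for Rhob, -0.92 for Bmpr2, -0.82 for mt-Nd6, -0.75 for Lgr4, -0.74 for Znrf3, -0.72 for Tcf7, -0.71 for Fgfr2, -0.70 for Nf1, -0.64 for Mki67, -0.64 for Sars, -0.63 for Braf, -0.61 for Socs2, -0.61 for Dnajb1, -0.58 for Jak1, -0.52 for Itgb1, -0.52 for Nras, -0.52 for Rpl28 and -0.51 for Ajuba. Members more positive in clone 8 had 0.48 for Calr, 0.48 for Hspb1, 0.49 for Cdc20, 0.49 for Fgfr1, 0.50 for Lamc1, 0.54 for Hsph1, 0.56 for Epop, 0.56 for Cdk1, 0.56 for Nop56, 0.80 for Ddit4, 1.14 for Sesn1, 1.34 for Lama1 and 1.45 for Tubb3. Fitted values of Hmcn1, Zfp521, Tmem132d, Usp17lc and Trim43a, with a condition at or near 0 counts, depend on the prior count of the fit and are not bounds. The share of exon bases under other annotated genes was 42.2% for Nab2, 41.65% for Rtkn, 25.7% for Hist1h1e, 23.4% for Ccnd1 and 22.1% for Dusp5.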

How the results depend on the processing

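The 8 libraries are few. Leaving out 1 library lowered the number of called genes for most of them and raised it for the rest. The number of genes whose change differed ranged from 424 to 1149 against 1012 when 1 library was left out: 424 without 0h clone 4 replicate 2, 478 without 0h clone 8 replicate 1, 610 without 0h clone 8 replicate 2, 517 without 2h clone 4 replicate 2, 616 without 2h clone 8 replicate 1 and 647 without 2h clone 8 replicate 2, with fewer libraries in each. The lone library of such a condition is assumed to vary like the others. Under the same omissions the genes changed in clone 4 ranged from 1542 to 2877 (3019 with all), those changed in clone 8 from 852 to 2206 (2011 with all), and those moved in opposite directions from 32 to 117 (86 with all). The low values were 1542 without 2h clone 4 replicate 2 and 852 without 0h clone 8 replicate 1. DESeq2 gave 526 genes, 1946 in clone 4, 992 in clone 8 and 32 in opposite directions, of which 524 of the 526 were also called in edgeR, and library totals gave 476, 946, 972 and 17, of which 325 of the 476 were also called with TMM. A threshold of 0.01 left 416 genes, and a difference of at least 1 left 449. RLE factors (987), no filter on low counts (947), the filter by 8 combinations (987), the 8 libraries fitted alone (1055) and the abundant features left out (999) gave counts within 1.5 times of 1012, as did 2 alternatives chosen after seeing the data, totals without the abundant features (996) and clone 8 rev replicate 1 left out (1109, with 3137 in clone 4). Replicate numbers did not pair the samples: deviations of same-numbered libraries correlated between -0.133 and 0.119. With the replicate block the counts were 926, 2915 in clone 4, 1912 in clone 8 and 77 in opposite directions.

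Of 136 named genes 125 passed the test and 22 did so under every alternative. Library totals turned 8 of them, none past the threshold: Ajuba 0.0699, Gpi1 0.124, Hmgcs1 0.0307, Insig1 0.0635, Itgb1 0.0606, Nras 0.0614, Rpl28 0.0720 and Srebf2 0.0292. That scaling moved the median of all genes to 0.56 and lost 80 other calls. DESeq2 lost 40 of the 125 calls. With RLE factors 10 were lost: Nab1, Spry2, Smad7, Insig1, Gpi1, Rpl28, Socs2, Pcdh1, Krt8 and mt-Nd6. With 1 library left out, members more positive in clone 4 numbered 5 to 9 in the ERK list, 4 to 6 in the Nodal list, 2 to 8 in the glycolysis list, 1 to 5 in the sterol list, 1 to 4 in the keratin list and 2 to 3 in the trophoblast list. The limit that 3 counts set was 0.21 to 0.599 CPM.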

Other observations

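Counts of called members in other gene lists stand against 7.94% of all genes tested. Their medians stand against -0.02 over all genes with TMM and 0.56 with library totals. Of 15 tested SRF and YAP target genes 11 rose in clone 4 and 5 in clone 8, and 3 were more positive in clone 4 (Rhob, Tagln2 and Ajuba; median -0.43, which turned to 0.15 with no member called with library totals). Rhob, a small GTPase of the actin skeleton, went from 9.79 and 8.49 to 16.7 and 19.6 CPM in clone 4 and was at 11.7, 10.2 and then 12.1, 10.7 CPM in clone 8. Of 15 imprinted growth genes 4 were more positive in clone 4 (median -0.66, which was -0.08 with no member called with library totals): Phlda2, a placental growth restraint, rose from 2.00 and 2.73 to 10.1 and 11.6 CPM in clone 4 and was at 1.58 to 2.24 CPM in clone 8, while Meg3 fell in clone 8 from 20.5 and 19.4 to 10.3 and 9.46 CPM. Of 18 RAF to ERK cascade genes 3 were more positive in clone 4 (Braf, Nf1 and Nras, differences -0.63, -0.70 and -0.52), and none in clone 8. DESeq2 and library totals called 0 of the 18, and with library totals the list median of -0.08 was 0.51 and Nras changed sign.

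Among FGF genes the receptors moved differently: Fgfr1 fell in clone 4 from 121 and 132 to 94.5 and 82.7 CPM and was at 112 to 123 CPM in clone 8, while Fgfr2 fell in clone 8 from 13.0 and 14.9 to 8.28 and 8.41 CPM and was at 41.0 to 49.1 CPM in clone 4. Of 7 tested FGF genes DESeq2 called 1 and library totals called 0. The call was lost under 6 of 18 alternatives for Fgfr1 and under 10 for Fgfr2. Of 10 Wnt genes 3 were more positive in clone 4 (Lgr4, Znrf3 and Tcf7) and 1 in clone 8 (Ccnd1), and of 11 LIF and STAT3 genes 2 in clone 4 (Jak1 and Socs2). DESeq2 called 1 of the 10 Wnt genes and 0 of the 11 LIF and STAT3 genes, and library totals called 1 and 0. Tubb3, a neuronal tubulin, fell in clone 4 from 58.5 and 70.0 to 31.9 and 25.6 CPM and was at 43.0, 44.3 and then 54.9, 50.97 CPM in clone 8 (1.45, adjusted p = 3.62e-07 in edgeR). Of 7 tested genes of the mitochondrial genome 2 were more positive in clone 4 (mt-Co1 and mt-Nd6), 1 of them, mt-Co1, falling in clone 8 from 2086.9 and 2180.3 to 1674.6 and 1304.2 CPM. DESeq2 and library totals called 0 of the 7, the median of -0.58 was 0.01 with library totals, 0 to 1 were called when 1 library was left out, and mt-Nd6 lost its call under 14 of 18 alternatives. In the ATF4 list 10 of 33 members fell in each clone, and 2 were more positive in clone 4 (Nupr1 and Sars) and 1 in clone 8 (Ddit4).

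The called members numbered 3 of 12 in the heat shock list, 3 of 15 in the polarity list, 3 of 25 in the G2 and M phase list, 2 of 17 in the p53 list, 1 of 9 in the DNA methylation list, 1 of 12 in the ID and BMP list, 1 of 14 in the chromatin repressor list, 1 of 16 in the endoplasmic reticulum stress list and 1 of 22 in the S phase list. With library totals these counts were 0, 1, 0, 1, 1, 0, 0, 0 and 1 in the same order. The 1 of the DNA methylation list was then more positive in clone 8, while Dnmt3l, called in clone 4 with TMM, lost its call. No member was called in edgeR or in DESeq2 in the primitive endoderm list (1 of 8 at an unadjusted p under 0.05 in edgeR), the mesoderm list (0 of 4), the fibroblast list (1 of 4) and the small nucleolar RNA host list (0 of 8).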
